A study of Homo sapiens with 25 samples.

Results

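A set of 9 genes of the Wnt pathway was described in every library: the ligands WNT16, WNT5A, WNT5B and WNT2, the secreted antagonists SFRP1, DKK1 and DKK2, their relative DKK3, and AXIN2, a feedback gene inside the cell. They are 9 of the 58302 genes counted and were taken by symbol from a list drawn up with earlier results of these data known. WNT16 was put on the list because it was seen to be higher under LSD1 inhibition, so the levels in that contrast are given as a description, with no test.

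The cells were hiF-T cells, a wild-type human fibroblast-like line made from BJ skin fibroblasts that carries an inducible hTERT gene, and all 25 libraries came from it. In the sort set the untreated cells were divided by how much of an accumulation dye they held, into low, midlow, midhigh and high gates, with an ungated library beside them and 4 biological replicates of each group. The labels name neither the dye nor its relation to any property of the cells. The drug set held 5 libraries. Replicate 1 had a DMSO control beside 1 library of each inhibition, DOT1L and LSD1; replicate 2 had 1 untreated control, labelled no drug, and a second LSD1 inhibition library. LSD1 is a histone demethylase and DOT1L a histone methyltransferase, and the labels give no compound, dose or time for either inhibition. They also do not say whether hTERT was induced. Replicates are numbered biological replicates of this single line, so a p-value speaks of the spread between its cultures.

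Wnt proteins are secreted, lipid-modified ligands that bind Frizzled receptors on nearby cells. With the co-receptors LRP5 and LRP6 they stabilise beta-catenin, which acts with TCF and LEF factors in the nucleus; with ROR or RYK they act on cell shape and movement without beta-catenin. SFRP1 binds Wnt ligands outside the cell, DKK1 and DKK2 bind LRP5 and LRP6, and AXIN2 is a widely used beta-catenin target that feeds back on the pathway. WNT5A is the typical non-canonical ligand of fibroblasts and mesenchyme.

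On GRCh38, in the GENCODE 29 annotation, all 9 genes are protein-coding and their counts were summed over exons. WNT16 lies at chr7:121325367-121341104 on the plus strand and WNT2 at chr7:117275451-117323289 on the minus strand. WNT5A lies at chr3:55465715-55490539 (minus) and WNT5B at chr12:1529891-1647243 (plus). DKK1 lies at chr10:52314296-52318042 (plus), DKK2 at chr4:106921802-107283806 (minus), DKK3 at chr11:11963106-12009769 (minus) and AXIN2 at chr17:65528563-65561647 (minus). DKK1 shares 212 exon bases, 9.61% of its exon length, with PRKG1-AS1 on the opposite strand. The library kit does not mark strand, so reads from the overlap cannot be told apart, and PRKG1-AS1 was credited with 194 counts in all libraries against 47848 for DKK1. AXIN2 shares more, 1316 exon bases or 25.18% of its exon length, with AC004805.1 on the same strand. WNT2 shares 170 exon bases, 3.78%, with AC002465.1 on the opposite strand. Both of these neighbours were credited with 0 counts. Whether reads from the shared bases were set aside as ambiguous was not tested.

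RefSeq promoters (GRCh38.p14) were held for 5 of the 9 genes: WNT16, WNT5A, WNT5B, WNT2 and DKK1. Shown here, 5′ to 3′ on the gene's own strand, are the 250 bases before the start site of WNT16, the gene that stood out under LSD1 inhibition, of both WNT5A starts, the ligand that rose along the dye gates, and of DKK1, a gene known as a beta-catenin target. Capitals mark matches to the TCF/LEF cores CTTTGAT and CTTTGAA, the AP-1 element TGACTCA or the TATA box TATAAA, searched on both strands; no pair of these motifs shares its bases in the windows printed.
WNT16, chr7:121328750-121328999, plus strand: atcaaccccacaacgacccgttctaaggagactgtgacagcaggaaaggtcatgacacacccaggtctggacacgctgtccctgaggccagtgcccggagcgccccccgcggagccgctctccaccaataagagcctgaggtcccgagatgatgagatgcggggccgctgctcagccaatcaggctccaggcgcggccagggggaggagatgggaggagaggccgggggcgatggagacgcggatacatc
WNT5A upstream start, chr3:55487307-55487556, minus strand: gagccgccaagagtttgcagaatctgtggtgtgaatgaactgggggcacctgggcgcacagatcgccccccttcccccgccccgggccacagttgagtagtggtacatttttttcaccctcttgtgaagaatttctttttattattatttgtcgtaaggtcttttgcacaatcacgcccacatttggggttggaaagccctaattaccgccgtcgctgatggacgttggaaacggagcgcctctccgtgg
WNT5A downstream start, chr3:55481399-55481648, minus strand: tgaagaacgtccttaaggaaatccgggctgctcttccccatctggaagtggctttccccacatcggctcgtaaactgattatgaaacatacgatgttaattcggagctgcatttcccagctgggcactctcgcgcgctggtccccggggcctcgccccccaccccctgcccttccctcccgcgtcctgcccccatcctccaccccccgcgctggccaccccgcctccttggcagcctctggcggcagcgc
DKK1, chr10:52314031-52314280, plus strand: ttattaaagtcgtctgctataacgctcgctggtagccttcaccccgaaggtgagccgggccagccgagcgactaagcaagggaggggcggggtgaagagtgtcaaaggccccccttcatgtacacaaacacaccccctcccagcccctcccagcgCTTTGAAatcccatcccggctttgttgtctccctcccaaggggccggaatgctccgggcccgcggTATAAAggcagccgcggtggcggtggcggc
The DKK1 window held CTTTGAA beginning 95 bases before the start site and TATAAA 30 bases before it. The WNT16 window and both WNT5A windows held none of the 4 motifs, which says only that these letters are not in these windows. Among 35116 promoters of the same length, 2.26% held CTTTGAT, 3.81% held CTTTGAA, 4.20% held TGACTCA and 10.7% held TATAAA. Of the windows not printed, that of the downstream WNT5B start held TATAAA on the opposite strand, 78 bases before the start site, and the others held none of the 4. CpG counts differed between the genes: 17 in WNT16, 14 and 18 in WNT5A, 18 in DKK1 and 38 in WNT2, but 10 and 7 in the WNT5B windows, against a median of 11 over all promoters.

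Depth was 15015039 to 20030093 gene counts per library, and a gene with no counts could have been present at up to 0.150 to 0.200 CPM (gene counts scaled to a common library total), the value of 3 counts; this floor covers counting error only. All 8 fibroblast markers had counts in every library, at levels far apart. COL1A1 stood at 2180 to 5016 CPM, COL1A2 at 1632 to 4407, VIM at 1731 to 2664 and PDGFRB at 49.8 to 123. COL3A1 stood at 10.4 to 166 CPM, S100A4 at 2.55 to 12.6 and LUM at 0.630 to 28.4. The surface marker THY1 stayed at 0.0598 to 1.72 CPM, with its lowest value under the floor. Pluripotency markers summed to at most 0.151 CPM, and of 5 endothelial markers PECAM1, CDH5 and VWF reached at most 0.572, 0.295 and 0.590 CPM. The other endothelial markers were present: KDR stood at 0.430 to 4.43 CPM and TEK, an angiopoietin receptor, at 36.2 to 101.2 CPM, so the list summed to 64.8 to 98.2 CPM in the low gate and 75.9 to 96.0 in the high gate; its part in the results was not tested. The proliferation marker MKI67 stood at 676 ± 76.9 CPM in the low gate and 367 ± 142 in the high gate (mean ± SD, n = 4); its part in the results for the Wnt genes was not tested. The library labelled ungated replicate 3 stood apart: across genes its nearest library was DMSO (r = 0.994 of log2 CPM), whereas every other sort library lay nearest to a library of its own replicate number. Results that rest on the ungated group are therefore also given without it. In bulk RNA, fewer cells that express a gene and less of its RNA per cell cannot be told apart.

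Per kilobase of exon, the 9 genes spanned a wide range of levels over the 20 sort libraries. Averaged over all 5 groups, DKK1 stood at 55.5 ± 12.4 CPM per kb, followed by DKK3 at 53.1 ± 7.17, SFRP1 at 42.4 ± 24.7, WNT5A at 36.0 ± 11.4 and WNT5B at 29.5 ± 5.04 (mean ± SD, n = 20), and each of these neighbours overlapped within 1 SD. WNT16 followed at 5.82 ± 2.19, and below it lay DKK2 at 0.743 ± 0.451 and AXIN2 at 0.120 ± 0.0431 CPM per kb. The AXIN2 value is divided by all of its exon bases, those shared with AC004805.1 included. WNT2 was close to undetected, with 6 counts in all 25 libraries and 0 to 2 in any of them, and it was not tested. The order shifted with the group. SFRP1 had the highest mean in the ungated libraries, at 57.4 ± 38.5 CPM per kb with DKK1 at 48.9 ± 17.7. DKK3 had it in the high gate, at 58.4 ± 7.62 with DKK1 at 54.3 ± 5.69. Both differences lie within 1 SD. The ungated order rested on ungated replicate 3, which held the most SFRP1 of that group, 485 CPM, and the least DKK1, 60.6 CPM. Without that library DKK1 had the higher mean per kb. WNT5A stood at 23.1 ± 2.04 CPM per kb in the low gate, below WNT5B at 27.5 ± 6.61, and at 47.2 ± 11.5 in the high gate, above WNT5B at 28.8 ± 3.70 (n = 4 each).

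WNT5A was higher with more dye. Its level in the low gate was 178, 183, 173 and 149 CPM in replicates 1 to 4, and in the high gate 423, 300.2, 418 and 253 CPM. Midlow libraries stood at 203, 216, 232 and 203 CPM and midhigh libraries at 350.2, 286, 401 and 252 CPM. The lowest high library lay above the highest low library, and the level rose at every gate step in 4 of 4 replicates. The log2 fold change of high over low was 1.04 ± 0.17 (SE; edgeR quasi-likelihood test, adjusted p = 0.00107). Over the 4 gates, taken as equal steps, the log2 slope was 0.37 ± 0.05 per step (adjusted p = 2.0e-04, edgeR quasi-likelihood).

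DKK2, an antagonist at LRP5 and LRP6, had the largest fold of the 9 genes in the same direction, from a low level. The low gate held 1.39, 0.754, 1.22 and 1.23 CPM in replicates 1 to 4, and the high gate 3.38, 3.87, 7.14 and 4.13 CPM. All 4 high libraries lay above all 4 low libraries, with folds of 2.44, 5.13, 5.84 and 3.36 within replicates 1 to 4. The log2 fold change was 2.03 ± 0.39 (adjusted p = 0.00245, edgeR quasi-likelihood), and the slope 0.70 ± 0.12 per gate step (adjusted p = 7.3e-04). These values rest on 76 counts summed over the low gate and 324 over the high gate.

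DKK3, a divergent Dickkopf protein that is not a typical antagonist at LRP6, rose by less. It stood at 241, 207, 263 and 236 CPM in the low gate and at 301, 255, 346.0 and 279 CPM in the high gate, so the groups overlapped although each replicate rose. Its log2 fold change was 0.33 ± 0.11 (adjusted p = 0.0450, edgeR quasi-likelihood) and its slope 0.12 ± 0.04 per step (adjusted p = 0.0196). With the replicate number as a block the difference was 0.33 ± 0.05 (adjusted p = 5.6e-05), and each of the 4 pairs rose, by 0.24 to 0.39 on the log2 scale. In the fit without the block the call depended on single libraries: the adjusted p was 0.0935 without high replicate 1, 0.0769 without low replicate 1, 0.124 without low replicate 2, 0.184 without high replicate 3 and 0.0904 without low replicate 4. The slope, also fitted without the block, lost its call without low replicate 2 (adjusted p = 0.0515) and without high replicate 3 (adjusted p = 0.0716).

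**Figure D1:**
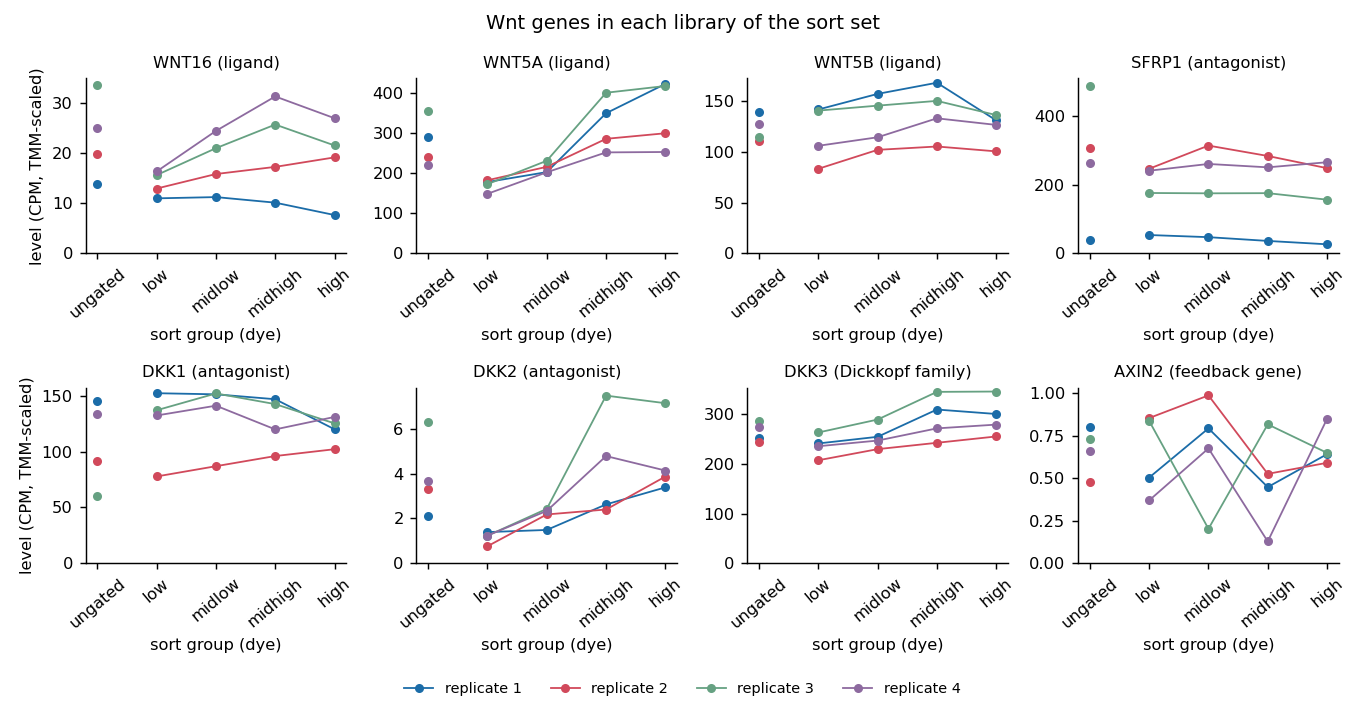
Level (CPM, linear axis from 0) of 8 of the 9 genes in each of the 20 sort libraries, by group; each colour is a replicate number, lines join the 4 dye gates of a replicate and the ungated library is the separate point. WNT5A climbs from 149 to 183 CPM in the low gate to 253 to 423 in the high gate, while for SFRP1 the replicate 1 libraries lie lowest.

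Of the 8 genes tested, WNT5A, DKK2 and DKK3 were thus higher in the high than in the low gate and 0 were lower, where 9.39% of all 14592 tested genes were higher and 8.35% lower. With the replicate number as a block the same 3 genes were called, against 19.8% of all genes higher and 17.4% lower. WNT5A then had 1.01 ± 0.10 (adjusted p = 1.8e-07) and DKK2 2.00 ± 0.24 (adjusted p = 2.7e-06, edgeR quasi-likelihood). Groups that did not overlap, with high above low, were found for WNT5A and DKK2, and for 8.88% of all genes. In the fit of the slope the same 3 genes were called, against 14.0% of 14419 genes called higher and 12.3% lower. The median log2 fold change of the 8 genes was 0.21, and that of all tested genes 0.01.

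WNT16 had its lowest level in the low gate in replicates 2 to 4, whereas in replicate 1 the high gate was lowest. The low gate held 11.0, 12.9, 15.6 and 16.3 CPM in replicates 1 to 4 and the high gate 7.64, 19.1, 21.5 and 26.9 CPM. High over low was 0.697-fold in replicate 1 and 1.48-, 1.38- and 1.65-fold in replicates 2 to 4, and the groups overlapped. The log2 fold change of 0.45 ± 0.36 did not pass the test (adjusted p = 0.419, edgeR quasi-likelihood). With the replicate number as a block the slope did pass, at 0.13 ± 0.05 per step (adjusted p = 0.0387), and the high against low difference missed the threshold at 0.38 ± 0.15 (adjusted p = 0.0503). In that blocked fit, 23.1% of all genes had a positive slope that passed and 20.7% a negative one. Without ungated replicate 3, the blocked high against low difference was 0.39 (adjusted p = 0.0296), an alternative chosen after seeing the data. The highest gated level was in midhigh, not high, in replicates 3 and 4, at 25.6 and 31.2 CPM.

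WNT5B, DKK1, SFRP1 and AXIN2 did not pass in high against low. WNT5B, the close paralog of WNT5A, stood at 118 ± 28.5 CPM in the low and 124 ± 15.9 in the high gate (log2 fold change 0.08 ± 0.17, adjusted p = 0.777, edgeR quasi-likelihood). DKK1 stood at 125 ± 32.6 and 120 ± 12.6 CPM (-0.04 ± 0.24, adjusted p = 0.925); it fell at every gate step in replicate 1 and rose at every step in replicate 2. AXIN2 had 2 to 20 counts in any library and stood at 0.641 ± 0.243 and 0.683 ± 0.114 CPM (0.09 ± 0.41, adjusted p = 0.908, edgeR quasi-likelihood). Its SE was 0.41 where that of WNT5A was 0.17, so changes smaller than that of WNT5A could have been missed.

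**Figure D2:**
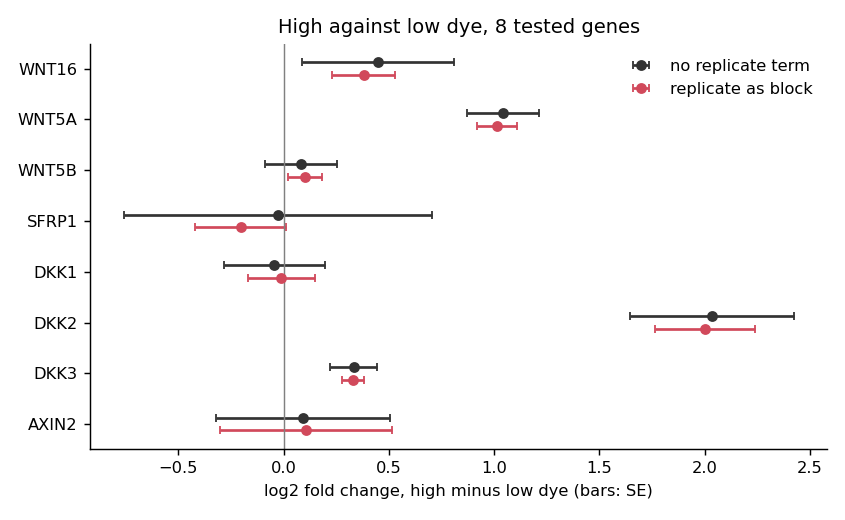
Log2 fold change of the high over the low gate for the 8 tested genes (x axis; bars are SE, 4 libraries per gate), without a replicate term in black and with the replicate number as a block in red. WNT5A, DKK2 and DKK3 lie above 0 in both fits, at 1.04, 2.03 and 0.33 without the block.

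SFRP1 (chr8:41261958-41309497, minus strand), the secreted Frizzled-related decoy for Wnt ligands, varied with the replicate number far more than with the gate. Replicate 1 held 53.5, 47.2, 36.3 and 26.5 CPM from low to high and 39.9 ungated. Replicate 2 held 246, 313, 283 and 247 CPM over the same gates, replicate 3 held 175, 174, 175 and 156, and replicate 4 held 240.0, 260, 249.8 and 265. All 5 replicate 1 libraries of the sort set thus lay below every other library, and within them the level fell at each gate step. The drug set libraries numbered replicate 1 held 408 to 661 CPM, so the same number did not share a level between the sets. The mean over the 4 gates was 40.9 CPM in replicate 1 and 170.2 to 272 in the others. Ungated replicate 3, at 485 CPM, stood well above the 4 gated libraries of its number and nearer to the 568 CPM of DMSO. High over low was -0.03 ± 0.73 on the log2 scale (adjusted p = 0.986, edgeR quasi-likelihood), an SE of 0.73 where that of WNT5A was 0.17; with the block it was -0.20 ± 0.22 (adjusted p = 0.490).

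WNT16 also had its lowest levels in replicate 1, with a mean over the 4 gates of 9.98 CPM against 16.3, 20.9 and 24.7 in replicates 2 to 4. DKK1 did not follow that order: its mean was 143 CPM in replicate 1, 90.8 in replicate 2, 139.5 in replicate 3 and 131 in replicate 4. The levels varied with the replicate number, and for SFRP1 replicate 1 stood apart from the others, so no correlation between these genes is given.

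**Figure D3:**
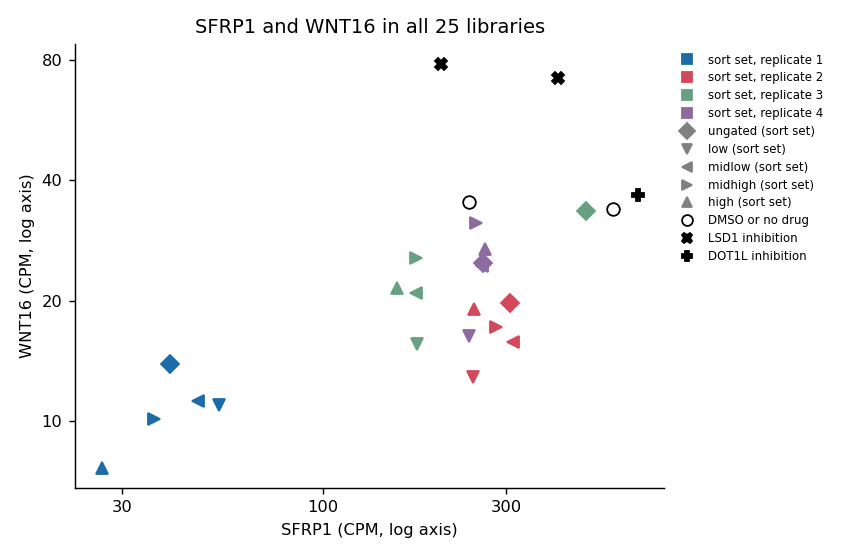
SFRP1 (x axis) against WNT16 (y axis) in all 25 libraries, in CPM on log axes; colours are replicate numbers of the sort set, shapes are groups and black symbols are the drug set. The 5 replicate 1 libraries of the sort set lie at 26.5 to 53.5 CPM of SFRP1. Both LSD1 inhibition libraries lie at the top, at 72.1 and 78.2 CPM of WNT16.

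Between the inner gates, midhigh against midlow, 0 of the 8 genes and 0 of all genes (0% called) passed in the edgeR fit without the block, while 1891 of all genes had an unadjusted p under 0.05 and DESeq2 called 104. Of the 8 genes 2 had an unadjusted p under 0.05 and DESeq2 called 0. WNT5A had a log2 fold change of 0.59 ± 0.17 there (adjusted p = 0.188). With the replicate block, 10.8% of all genes were called and 5.52% called higher, and 3 of the 8 genes were among the latter. These were WNT5A at 0.57 ± 0.09 (adjusted p = 0.00181), DKK2 at 0.95 ± 0.22 (adjusted p = 0.00871) and DKK3 at 0.19 ± 0.05 (adjusted p = 0.0247, edgeR quasi-likelihood).

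Against ungated cells, 0 of the 8 genes passed in either outer gate without the block; with it 3 were lower in the low gate and 1 was higher in the high gate. Ungated libraries held 290, 242, 355 and 221 CPM of WNT5A, 13.9, 19.7, 33.5 and 24.9 CPM of WNT16, and 2.12, 3.31, 6.29 and 3.65 CPM of DKK2. Without the block, edgeR called 0 of the 8 genes in low against ungated and 0.0754% of all genes, all lower; 2 of the 8 had an unadjusted p under 0.05, and DESeq2 called WNT5A and DKK2 lower. With the block, 10.8% of all genes passed and 7.20% were called lower, among them WNT5A (-0.67 ± 0.10, adjusted p = 2.0e-04), DKK2 (-1.70 ± 0.24, adjusted p = 2.2e-04) and WNT16 (-0.69 ± 0.15, adjusted p = 0.00606, edgeR quasi-likelihood). These 3 and DKK3 were called lower when ungated replicate 3 was also left out. In high against ungated, edgeR and DESeq2 each called 0 of the 8 genes, 0 had an unadjusted p under 0.05, and edgeR called 1 of all genes (0.00685%). With the block 3.66% of all genes were called higher, and of the 8 genes WNT5A was, at 0.34 ± 0.09 (adjusted p = 0.0326), also without ungated replicate 3. DKK3 lay about as far from ungated on either side with the block, at -0.16 ± 0.05 in the low gate (adjusted p = 0.0540) and 0.17 ± 0.05 in the high gate (adjusted p = 0.0507, edgeR quasi-likelihood), and passed in neither.

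Of the 122 other genes of 8 Wnt role lists, 82 were tested in high against low. Of these 3 were higher, 3 lower and 76 not called, below the shares over all genes of 9.39% higher and 8.35% lower, and their median log2 fold change was 0.02. With the block, 19 were higher and 11 lower, where 19.8% of all genes were higher and 17.4% lower. The higher ones without the block were APC2, a relative of the APC scaffold of the beta-catenin destruction complex, at 1.85 ± 0.27 (adjusted p = 4.8e-04), PRICKLE1 of the planar polarity pathway at 0.80 ± 0.23 (adjusted p = 0.0200), and DVL3, a Dishevelled adaptor, at 0.24 ± 0.07 (adjusted p = 0.0247, edgeR quasi-likelihood). The lower ones were TLE3, a co-repressor of TCF factors, at -0.58 ± 0.13 (adjusted p = 0.00607), PPARD, a nuclear receptor listed as a beta-catenin target, at -0.45 ± 0.15 (adjusted p = 0.0397), and ZNRF3, a ubiquitin ligase that removes Frizzled receptors, at -0.44 ± 0.14 (adjusted p = 0.0339).

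By role, 1 of 6 tested ligands was higher in the high gate, and it was WNT5A; 13 of the 19 listed ligands had too few counts to test. Among ligands outside the 9 genes, WNT2B (8.52 CPM over the sort libraries) and WNT3 (5.52 CPM) had log2 fold changes of 0.04 ± 0.41 and -0.05 ± 0.18. WNT7B, at 0.629 CPM, had -1.63 ± 0.94 and did not pass; with the block it was lower (-1.56 ± 0.44, adjusted p = 0.00767, edgeR quasi-likelihood). Of 6 tested secreted antagonists, DKK2 and DKK3 were higher. IGFBP4, a secreted IGF-binding protein on the antagonist list, at 678 CPM, had 0.62 ± 0.26 (adjusted p = 0.101); with the block it was higher at 0.60 ± 0.08 (adjusted p = 6.0e-06), and its slope passed without the block at 0.23 ± 0.07 per step (adjusted p = 0.0253, edgeR quasi-likelihood). Of the 7 tested secretion genes 0 were called and 0 had an unadjusted p under 0.05. Of 19 receptors, co-receptors and their regulators 0 were higher and 1, ZNRF3, was lower, but with the block 5 were higher (LRP5, ROR1, PTK7, KREMEN1 and RSPO3) and 2 lower (FZD1 and ZNRF3). Of 12 beta-catenin feedback genes and targets 0 were higher and 2 lower, and with the block CCND1 and JAG1 were higher and ZNRF3, MYC, CD44 and PPARD lower. The shares over all genes given above, without and with the block, are the background for each of these lists. Planar polarity and non-canonical genes had the highest median, 0.37, over 16 tested, of which 1 was called higher without the block and 6 higher and 2 lower (VANGL1 and RAC1) with it. Of the ROR receptors that WNT5A is known to bind, ROR2 was close to undetected at 0.0244 CPM, and ROR1 at 4.61 CPM had a log2 fold change of 0.84 ± 0.36 (adjusted p = 0.115); with the block it was higher at 0.87 ± 0.21 (adjusted p = 0.00255). The ROR1 slope over the gates passed without the block, at 0.29 ± 0.10 per step (adjusted p = 0.0389).

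**Figure D4:**
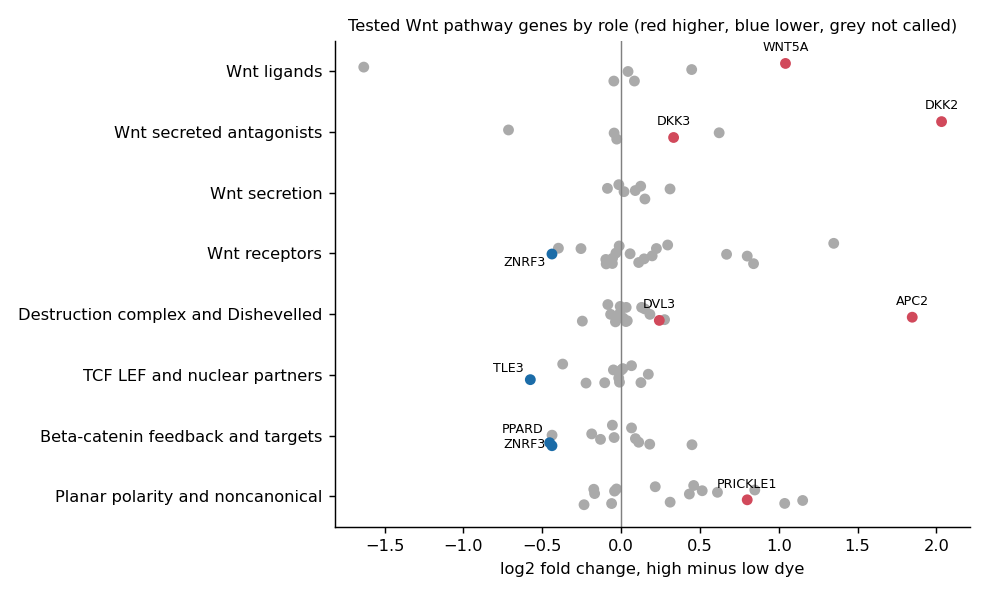
Log2 fold change of the high over the low gate for each tested gene of the 8 Wnt role lists (1 point per gene and list; some genes are in more than 1 list), with calls of the fit without the block in red (higher) and blue (lower). The called genes are labelled: WNT5A, DKK2, DKK3, APC2, DVL3 and PRICKLE1 to the right of 0, and ZNRF3, TLE3 and PPARD to the left.

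Under LSD1 inhibition WNT16 stood at 72.1 CPM in replicate 1, where DMSO had 33.9, and at 78.2 CPM in replicate 2, where the no drug library had 35.3. These are 2.13- and 2.22-fold, and both treated libraries lay above all 23 others. The value is the reason the gene was chosen and is given without a test. Of 14990 genes with values, 131 had a log2 ratio at least as high in both pairs, and 1.13% were at least 2-fold higher in both. Across all genes the edgeR test called 16 of 14002 (0.114%), all higher, and 2242 with the replicate block. The edgeR test took DMSO of replicate 1 and no drug of replicate 2 as 1 control group. The kind of control therefore cannot be told apart from the replicate number.

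The other ligands and the antagonists had ratios closer to 1 under LSD1 inhibition. WNT5A stood at 385 and 369 CPM against 346 in DMSO and 286 without drug, 1.11- and 1.29-fold. SFRP1 stood at 408 against 568 CPM in replicate 1 and at 203 against 240.4 in replicate 2, so it was lower in both pairs while the 2 controls differed from each other by more. WNT5B stood at 102 against 109 and at 158 against 177 CPM. DKK1 was higher in 1 pair, 75.2 against 61.0 CPM, and lower in the other, 70.9 against 74.0. DKK2 (6.91 against 7.32 and 8.77 against 8.80 CPM) and DKK3 (290.0 against 297 and 359 against 362 CPM) stayed at 0.944- to 0.996-fold. AXIN2 had 10 and 2 counts under inhibition and 11 and 10 in the controls. In both treated libraries WNT5A lay above both controls, an order that 17.1% of all genes showed. WNT16 was chosen for its rise in this contrast, so its order is not set against that share.

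Of 80 other Wnt genes tested in that contrast, 0 passed in edgeR without the block, 7 had an unadjusted p under 0.05 and DESeq2 called 2 higher; 8 were higher and 10 lower with the block, where 9.10% of all genes were higher and 6.91% lower. Among the tested genes, the largest changes shared by both pairs were in CELSR2, a planar polarity cadherin, at 6.78 against 2.00 and 5.97 against 1.67 CPM. ROR1 stood at 11.6 against 7.01 and 15.3 against 9.60 CPM, and the co-receptor LRP5 at 89.6 against 62.2 and 101.8 against 63.4. TLE3 stood at 14.3 against 23.4 and 13.3 against 19.2 CPM. RSPO3, not tested in that contrast, stood at 1.23 against 0.501 and 0.56 against 0.186 CPM. These are 2.45- and 3.01-fold, from a low level.

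**Figure D5:**
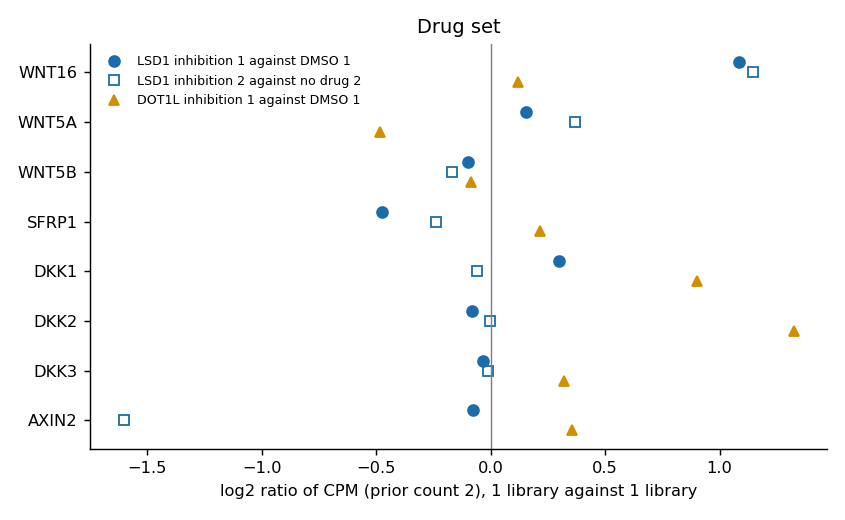
Log2 ratio of CPM (x axis, prior count 2), 1 library against 1 library, for 8 of the genes: LSD1 inhibition against the control of the same replicate number (blue) and DOT1L inhibition against DMSO (orange). WNT16 lies at 1.09 and 1.14 under LSD1 inhibition and DKK2 at 1.33 under DOT1L inhibition.

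Under DOT1L inhibition, with 1 library and DMSO as its control, the antagonists stood higher and WNT5A lower. There is no replicate, so intervals cover counting error only (95%, exact, conditional on the total), and reads are not independent molecules. DKK2 stood at 18.5 against 7.32 CPM, a 2.53-fold ratio (2.04 to 3.15), past a 2-fold rise that 4.17% of 14990 genes showed. DKK1 stood at 114 against 61.0 CPM, 1.87-fold (1.73 to 2.02), DKK3 at 372 against 297 CPM, 1.25-fold (1.20 to 1.30), and SFRP1 at 661 against 568 CPM, 1.16-fold (1.13 to 1.20). WNT5A stood at 248 against 346 CPM, 0.716-fold (0.688 to 0.745). WNT16 (36.9 against 33.9 CPM, 1.09-fold, 0.968 to 1.22) and WNT5B (103 against 109 CPM, 0.941-fold, 0.881 to 1.01) had intervals that include no change.

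Set against the no drug library of replicate 2, the DOT1L log2 ratio was 1.06 for DKK2 and 0.63 for DKK1. Against DMSO the values were larger, at 1.33 and 0.90, so the size of both rises depended on the control. The ratio to no drug was 1.46 for SFRP1 against 0.22 with DMSO, and -0.79 for WNT5B against -0.09. It was -0.21 for WNT5A against -0.48 and 0.04 for DKK3 against 0.32. The 2 controls themselves differed by -1.24 for SFRP1 and 0.70 for WNT5B, no drug minus DMSO, on that scale. Both inhibitions share the DMSO library. Among other Wnt genes RSPO3, an R-spondin that amplifies Wnt signals, stood at 2.29 CPM against 0.501 in DMSO, and DAAM2 at 6.35 against 2.00. LGR5, an R-spondin receptor, stood at 24.0 against 9.20 and the decoy FRZB at 7.21 against 3.57. The no drug library held 0.186, 3.22, 16.2 and 1.86 CPM of these genes, in that order. Against it the ratios of DAAM2 and LGR5 were smaller and those of RSPO3 and FRZB larger.

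Genes whose log2 CPM followed a Wnt gene most closely over the 20 sort libraries were picked from 10157 or 10158 genes by Pearson's r, so high values are partly a product of the search, and libraries of a replicate or gate share their level. For WNT5A these were FAM43A (r = 0.978), the laminin chain LAMC1 (0.973) and the endocytic receptor LRP1 (0.967). DKK2 was followed by SCD5 (0.965), TSPYL1 (0.955) and the collagen COL11A1 (0.946), and DKK3 by the tetraspanin CD81 (0.963), MAMDC2 (0.963) and the lipase PNPLA2 (0.959). For WNT16 they were RGS4 (0.916), TFPI2 (0.914) and COL4A6 (0.905), for DKK1 the BMP antagonist NOG (0.925), TRIM58 (0.884) and KLF2 (0.878), and for WNT5B the urokinase receptor PLAUR (0.910), GADD45B (0.891) and FSTL3 (0.884). For SFRP1, PDE7B (0.971), PC (0.957) and SOCS5 (0.946) came first, with the 5 replicate 1 libraries set apart from the other 15. AXIN2 had no close follower; the nearest, CRBN, reached 0.636.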

How the data were processed

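RNA was sequenced from poly(A)-selected libraries of 25 samples. Per the submitters' processing notes, the authors used STAR and HTSeq with hg38 (GRCh38); versions, options and annotation are not given in the sources used here. The deposited values are whole-number read counts per gene, not normalized, at 15015039 to 20030093 per library; DKK2, for example, rests on 15 to 324 counts in a library. Reads without a gene (4.33% to 7.72% as no feature, 7.14% to 7.62% as ambiguous) were left out. Of 58302 gene IDs, 57532 had a symbol.

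CPM were scaled by TMM over all 25 libraries (log2 values with a prior count of 2). The sort comparisons were fitted on the 20 sort libraries and the slope on the 16 gated ones with edgeR 4.0.16 (R 4.3.3) quasi-likelihood tests, filterByExpr (minimum count 10, total 15) and Benjamini-Hochberg adjustment over all genes, called under 0.05; LSD1 inhibition was fitted on 4 libraries. SE is the log2 fold change over the root of F. The script was tested on simulated data. DESeq2 1.42.0, other size factors, no filter, other library sets, a replicate block and leaving out each library were alternatives. Same-numbered sort libraries deviated together (40 of 40 pairs had r above 0.1, 0.146 to 0.618). The 120 pairs with different numbers reached r = 0.288, so the ranges overlapped. Numbers were taken to pair the sort libraries in the folds within replicates and in the block. The main fits hold no replicate term and treat the libraries as independent. The labels do not say what a number shares. The drug set has 2 pairs. No pair of libraries was a duplicate.

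The genes, role lists and tests were chosen with earlier results of these data known. All 9 genes were described; other Wnt genes were named if called in high against low with 4 of 4 pairs in 1 direction (up to 4 per list), or, in the drug set, as the up to 4 with the largest change. In the sort set, WNT2B, WNT3, WNT7B, ROR2, IGFBP4 and the genes called only with the block were named after their values were seen. So was RSPO3 under LSD1 inhibition, which was not tested in that contrast. Followers are the 3 genes of highest r, at a mean of at least 5 CPM. Plots used matplotlib 3.10.9.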

Additional observations from a re-analysis of the deposited data

Results flagged for a closer look

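DKK1 in the midlow gate had 1 library far from the other 3: replicate 2 stood at 87.1 CPM and the others at 141 to 152 CPM. It was the only one of 40 gene and group sets of 4 libraries in which the gap to the nearest library took up nearly the whole range, and chance gives such a gap in about 1 of 20. Replicate 2 also had the lowest DKK1 level in the low, midhigh and high gates, at 77.8, 96.2 and 102 CPM.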

How the results depend on the processing

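In high against low, WNT5A and DKK2 were called in each alternative run, and DKK3 in all but those named with it above and the fit of the compared groups alone (adjusted p = 0.0737). Over all genes, edgeR called 2589 there, 1497 with the compared groups alone, 5433 with the replicate block, and 5815 with the block and without ungated replicate 3; leaving out 1 library gave 1255 (without high replicate 3) to 2965 genes, and 1519 without high replicate 1. The slope was called for 3784 genes, 6317 with the block, and for 2514 (without high replicate 3) to 4149 with 1 library left out. In midhigh against midlow, 0 genes became 99 with no filter on low counts (WNT5A, 1 of the 8 genes, among them), 104 with DESeq2, 1574 with the block and 2026 with the block and without ungated replicate 3; in both blocked fits 3 of the 8 genes were called. In high against ungated, 1 gene became 25 with no filter, 16 with DESeq2, 1107 with the block, 542 with the block and without ungated replicate 3, 0 with the compared groups alone and 0 to 6 with 1 library left out; 1 of the 8 genes was called in both blocked fits. In low against ungated, 11 genes became 177 with no filter, 188 with DESeq2 (2 of the 8 genes in each), 1575 with the block (3 of the 8), 899 with the block and without ungated replicate 3 (4 of the 8), 0 with the compared groups alone and 0 to 36 with 1 library left out (0 without ungated replicate 3). Under LSD1 inhibition, 16 genes became 0 with no filter, 116 with DESeq2, 2242 with the block and 108 to 331 with 1 library left out, where the lone library is assumed to vary like the others. Genes not called changed sign when 1 library was left out. The log2 fold changes of high over low then ran from -0.047 to 0.18 for WNT5B, -0.33 to 0.33 for SFRP1, -0.21 to 0.063 for DKK1 and -0.10 to 0.28 for AXIN2. The slopes ran from -0.0061 to 0.067 for WNT5B, -0.11 to 0.084 for SFRP1, -0.071 to 0.0021 for DKK1 and -0.070 to 0.037 for AXIN2. Midhigh over midlow ran from -0.030 to 0.45 for WNT16, -0.0100 to 0.21 for WNT5B, -0.42 to 0.25 for SFRP1 and -0.24 to 0.032 for DKK1. High over ungated ran from -0.027 to 0.12 for WNT5B, -0.028 to 0.34 for DKK1 and -0.081 to 0.16 for AXIN2, and low over ungated from -0.16 to 0.072 for WNT5B and -0.23 to 0.15 for AXIN2. With the block and without ungated replicate 3, high over ungated was -0.074 for WNT5B and -0.059 for DKK1, and low over ungated -0.050 for DKK1. The cause of these shifts was not tested. The block changed no call of the 8 genes beyond those given above. Depth limits AXIN2, at 2 to 20 counts per library, and WNT2. The part of the exon overlap with AC004805.1 in the low AXIN2 counts was not tested.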
